A study of Mus musculus with 10 samples.

Results

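The subject here is a set of 10 genes of lipid droplet coating and triglyceride turnover in endothelial cells of the mouse heart: Plin2, Plin3, Plin4, Plin5, Pnpla2, Lipe, Abhd5, Hilpda, Dgat1 and Dgat2. All 10 were found by symbol among the 46983 gene identifiers of the deposited count table, and all 10 had enough reads to be tested. The set follows textbook roles, but it was drawn up with results of this diet comparison known and so counts as chosen on the measured fold changes of the same contrast. Diet differences of the 10 genes are therefore given as descriptions, with their errors and without p-values. RNA was sequenced from CD31+ cells, which are cells bearing the endothelial surface protein PECAM1, pulled from digested hearts of male wild-type C57BL/6J mice with antibody-coated magnetic beads. The mice entered the study at 8 weeks of age, and no group carried a transgene or a drug treatment. The control diet group (n = 5) ate the diet D12359, with 11.6% of its energy as fat, for 14 days. The ketogenic diet group (n = 5) ate D17011501, with 89.5% of its energy as fat, for the same time. Each library carries 1 number in the labels and is called a mouse here, although no source used here states whether hearts were pooled. P-values therefore rest on the spread between these 10 libraries.

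Cells store surplus fatty acids as triglyceride in lipid droplets, which are wrapped in perilipins that control the access of lipases. Triglyceride is made by the acyltransferases DGAT1 and DGAT2 and broken down by ATGL, the product of Pnpla2, with its coactivator ABHD5 (CGI-58), and then by hormone-sensitive lipase, the product of Lipe. HILPDA and G0S2 are small inhibitors of ATGL. Endothelial cells of the heart pass fatty acids from blood to muscle and can hold some of them in droplets for a time, whereas cardiomyocytes, which oxidize fatty acids, are rich in perilipin 5. Several genes of the set, among them Plin2, Plin4, Plin5 and Hilpda, are known targets of PPAR transcription factors, which fatty acids activate.

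The gene counts of a mouse summed to between 10885154 and 12710861 reads. Counts were normalized by the TMM method and 15949 genes were tested with edgeR's quasi-likelihood F-test. The endothelial markers were abundant, with a summed RPKM (reads per kilobase of gene, scaled to the reads counted in the mouse) of 572 to 608 over 9 markers on the control diet and 555 to 617 on the ketogenic diet. Cells other than endothelial cells were present in both groups: the 6 mural cell markers summed to between 554 and 614 RPKM over all mice and the 6 fibroblast markers to between 214 and 260.1 RPKM. The 12 cardiomyocyte markers summed to 249 to 318 RPKM on the control diet and 291 to 393 RPKM on the ketogenic diet (means 276 and 345, two-sided exact permutation test, p = 0.0159). Of the 11 cardiomyocyte markers tested, 10 had a higher estimate on the ketogenic diet, 0 had an adjusted p under 0.05 with edgeR, 8 had an unadjusted p under 0.05, and DESeq2 called 5. None of the 12 was at 0 in all mice. The 8 adipocyte markers summed to at most 2.45 RPKM in any mouse. Of the defining adipocyte genes, Plin1 was at 0 in 8 mice and Adipoq at 0 in 5, and the highest counts were 2 reads for Plin1 and 9 for Adipoq. The summed level of the 5 lymphocyte markers was lower on the ketogenic diet (44.6 to 53.0 RPKM against 54.1 to 70.7 RPKM, exact permutation test, p = 0.00794, the smallest p that 5 against 5 mice allow). The 7 macrophage markers summed to 21.1 to 115 RPKM on the control diet and 17.0 to 35.7 RPKM on the ketogenic diet, without a detectable difference (exact permutation test, p = 0.119). The 115 RPKM was that of control mouse 1. Of the 7 macrophage markers, 5 had a lower estimate on the ketogenic diet and 2 a higher one. With edgeR, 0 were called and 3 had an unadjusted p under 0.05 (Adgre1, C1qa and Cd68, all lower). In bulk RNA of this kind, more cells of a type and more RNA per cell cannot be told apart.

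Plin2, Plin5 and Hilpda, 3 of the 10 genes, were called higher after the change of diet (adjusted p under 0.05 in edgeR's fit over all genes), beside 0.809% of all tested genes called higher and 1.34% called in either direction. Nothing is read from these counts, or from calls kept or lost in other fits below, since the set was chosen on the same contrast. The normalized counts of Plin2 and Hilpda did not overlap between the diets, beside 2.40% of all tested genes that were higher without overlap. Over the 10 genes, 7 estimates were above 0 and 3 below, and the median log2 fold change was 0.20, beside −0.01 over all tested genes. The values of each mouse are shown in the plot of normalized counts by diet.

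**Figure D1:**
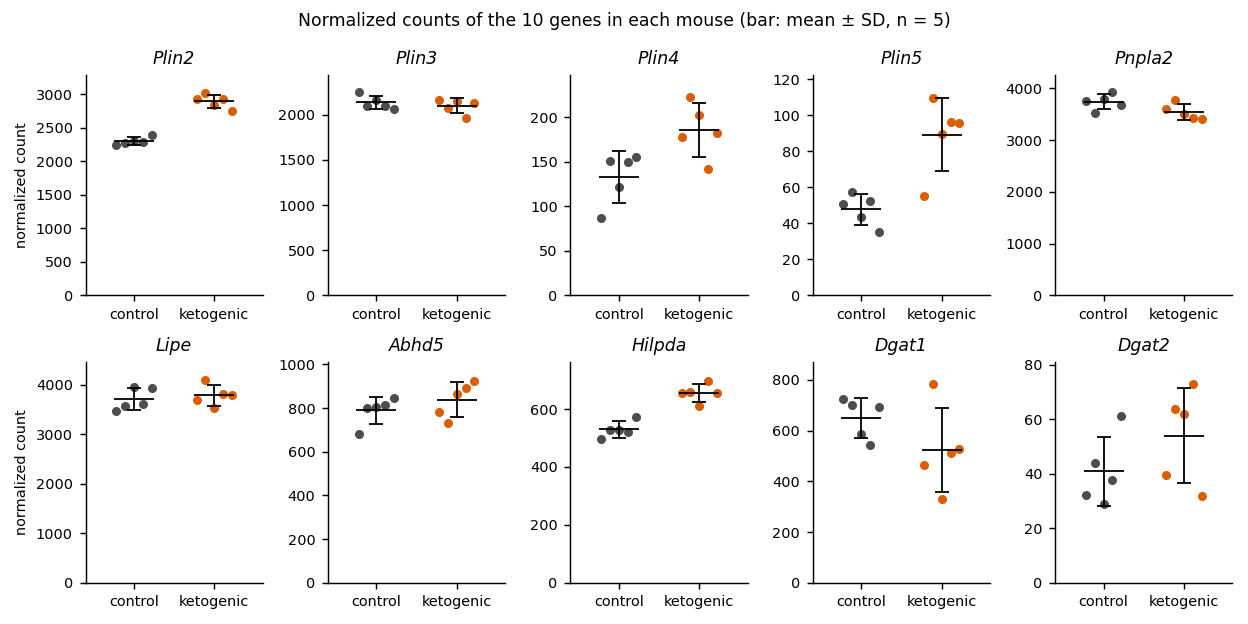
Normalized counts (y axis, each starting at 0) of the 10 genes in every mouse on the control diet (grey) and the ketogenic diet (orange), with the mean and SD of 5 mice as bars. The points of Plin2 and Hilpda separate fully by diet, and those of the other genes overlap. For Plin5 and for Plin4, 4 of the 5 ketogenic diet points lie above all control points.

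Plin2 encodes perilipin 2, the coat protein of droplets in most cells outside fat tissue. It lies on chromosome 4 from 86648386 to 86670060 on the minus strand of GRCm38 (ENSMUSG00000028494.12). On the control diet, its normalized counts were 2249, 2273, 2302, 2293 and 2398 in mice 1 to 5. On the ketogenic diet, they were 2928, 3015, 2849, 2936 and 2755. The lowest mouse of the ketogenic diet was above the highest control mouse. The means were 2303 ± 56.9 and 2897 ± 98.5 (SD, n = 5 each), a log2 fold change of 0.33 (standard error 0.0332). Plin2 was called in all 10 fits that left out a mouse, where the estimates ran from 0.32 to 0.35. It was also called when the cardiomyocyte score, a summary of the marker levels of a mouse, was added to the model (0.32).

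Hilpda encodes a small droplet protein that inhibits ATGL and is induced by low oxygen and by fatty acids. It lies on chromosome 6 from 29272488 to 29275446 on the plus strand (ENSMUSG00000043421.8). The control mice had normalized counts of 497, 528, 528, 521 and 574. The ketogenic diet mice had 656, 658, 611, 697 and 657, so that every one of them was above every control mouse. The means were 529.7 ± 28.1 and 656 ± 30.5 (SD, n = 5 each), a log2 fold change of 0.31 (standard error 0.0576). The estimate stayed between 0.29 and 0.34 with each mouse left out in turn and was 0.31 with the cardiomyocyte score in the model. The call was lost in 7 of those 10 fits, those without control mouse 1, 2, 3 or 4 or without ketogenic diet mouse 1, 4 or 5. It was also lost with the cardiomyocyte score, with the adipocyte score and under the replicate block (0.31 in each).

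Plin5 encodes perilipin 5, a coat protein of heart muscle and other oxidative tissues that ties droplets to mitochondria. It lies on chromosome 17 from 56111601 to 56117596 on the minus strand (ENSMUSG00000011305.11). Its normalized counts were low, at 50.8, 57.2, 43.5, 52.6 and 35.2 on the control diet and 55.3, 109.8, 89.3, 96.2 and 95.7 on the ketogenic diet. Ketogenic diet mouse 1 lay within the control range, and the other 4 lay above it. The means were 47.9 ± 8.63 and 89.3 ± 20.4 (SD, n = 5 each), a log2 fold change of 0.90 (standard error 0.196). The call was lost in 9 of the 10 fits that left out a mouse and kept only without ketogenic diet mouse 1, where the estimate was 1.03, and the lowest estimate was 0.80, without control mouse 5. The call was also lost with upper quartile factors, with no filter on low counts, with limma on log2(RPKM + 0.1), under the replicate block (0.89), with the adipocyte score (0.98) and with the cardiomyocyte score in the model (0.77).

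Plin4, a large perilipin of fat and muscle, is the next gene along chromosome 17, from 56100591 to 56109803 on the minus strand (ENSMUSG00000002831.13). Its normalized counts were 86.4, 151, 122, 149 and 156 on the control diet and 178, 223, 202, 142 and 182 on the ketogenic diet. Ketogenic diet mouse 4 lay among the control mice, the other 4 above them. The means were 133 ± 29.1 and 185 ± 30.2 (SD, n = 5 each). Plin4 shares 17 exonic bases with Hdgfl2 on the other strand. The log2 fold change of 0.48 (standard error 0.168) was not called, and it fell to 0.36 without control mouse 1, the lowest of all mice. Plin3, which encodes the perilipin that moves from the cytosol onto new droplets (ENSMUSG00000024197.9, chromosome 17 from 56277476 to 56292873), had normalized counts of 2066 to 2251 on the control diet and 1965 to 2169 on the ketogenic diet. Its fold change was 0.983 (95% interval 0.928 to 1.04). Within the perilipin family, the estimates thus ran from −0.03 for Plin3 to 0.90 for Plin5.

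The summed cardiomyocyte marker level was higher on the ketogenic diet, as were the estimates of Plin5 and Plin4 (see the plot against marker level). Ketogenic diet mouse 1, with the lowest Plin5 count of its group, also had the lowest summed cardiomyocyte marker level of its group, 291 RPKM. Control mouse 3 had the highest marker level of its group, 318 RPKM, with a Plin5 count of 43.5 and a Plin2 count of 2302. The 10 genes were each related to the cardiomyocyte score over the 10 mice after the mean of each diet was subtracted, with the score permuted exactly within diets and Benjamini-Hochberg adjustment over the 10 relations. Pearson's r ran from −0.31 for Dgat1 to 0.37 for Dgat2, and the smallest adjusted p was 0.764. For Plin5, r was 0.25 (exact permutation p = 0.544) and Spearman's rho −0.09 (exact permutation p = 0.829), and r was −0.24 without the 2 mice farthest from the median score. Within 1 diet alone there are too few mice for such a relation. With the score in the model, 1 of the 10 genes, Plin2, was called, beside 0.157% of all genes. Whether cardiomyocyte RNA has a part in the Plin5 and Plin4 values was not tested beyond these comparisons.

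**Figure D2:**
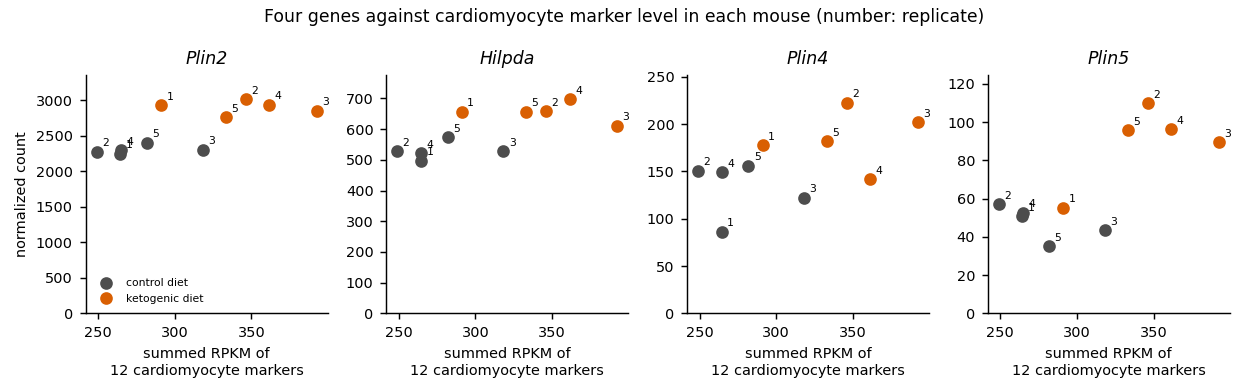
Normalized counts of Plin2, Hilpda, Plin4 and Plin5 (y axes) against the summed RPKM of 12 cardiomyocyte markers (x axes) in each mouse, with grey points for the control diet, orange points for the ketogenic diet and the replicate number beside each. Plin2 and Hilpda separate by diet, and ketogenic diet mouse 1 lies with the control mice for Plin5. The marker levels of the diets overlap only through control mouse 3 (318 RPKM) and ketogenic diet mouse 1 (291 RPKM). The other mice separate by marker level as well as by diet.

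The lipases that empty the droplet were abundant, and none of them was called in the fit over all genes. Pnpla2 (ENSMUSG00000025509.15, chromosome 7 from 141455198 to 141460743, plus strand) encodes ATGL, which removes the first fatty acid from triglyceride. Its normalized counts were 3530.5 to 3924 on the control diet and 3407 to 3778 on the ketogenic diet, a fold change of 0.948 (95% interval 0.896 to 1.004). Lipe (ENSMUSG00000003123.15, chromosome 7 from 25379527 to 25398710, minus strand), whose product acts mainly on diacylglycerol, had 3472 to 3963 and 3529 to 4102, a fold change of 1.02 (95% interval 0.948 to 1.097). Abhd5 (ENSMUSG00000032540.15, chromosome 9 from 122351608 to 122381524, plus strand), the coactivator of ATGL, had 681 to 847 and 729.7 to 925, a fold change of 1.06 (95% interval 0.945 to 1.19). All 3 had overlapping groups, and their intervals span 1. Lipe shares 918 exonic bases with the antisense gene 4732471J01Rik and Abhd5 shares 950.0 with A730085K08Rik, and because the library kit does not record the strand, reads in these stretches could come from either gene. For each 100 reads on Pnpla2, there were 13.2 to 15.6 reads on its inhibitor gene Hilpda on the control diet and 17.4 to 20.3 on the ketogenic diet (14.2 ± 1.05 and 18.5 ± 1.27, SD, n = 5 each). The lack of overlap in this ratio restates the separation of the Hilpda counts and is not a further result. The mean count of Pnpla2 also exceeded the possible read start positions of its principal transcript (104% and 103%, described below).

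The 2 genes of the last step of triglyceride synthesis had estimates on opposite sides of 0 and wide errors. Dgat1 (ENSMUSG00000022555.11, chromosome 15 from 76502015 to 76511953, minus strand) had normalized counts of 724, 703, 588, 543 and 692 on the control diet and 464, 784, 329, 512 and 528 on the ketogenic diet. Ketogenic diet mouse 2 was the highest of all mice and mouse 3 the lowest. The log2 fold change was −0.31 (standard error 0.181), and it was −0.50 without ketogenic diet mouse 2 and −0.18 without mouse 3. Dgat2 (ENSMUSG00000030747.4, chromosome 7 from 99153658 to 99182719, minus strand) had 28 to 75 reads per mouse, and its normalized counts were 32.4, 43.9, 29.0, 37.9 and 61.4 on the control diet and 39.5, 63.8, 61.9, 72.9 and 31.9 on the ketogenic diet. Ketogenic diet mice 2, 3 and 4 lay above the control mice, and mice 1 and 5 lay among them. Its log2 fold change of 0.39 (standard error 0.268) was 0.06 with the cardiomyocyte score in the model. For both genes, the 95% interval of the fold change was wide, from 0.612 to 1.06 for Dgat1 and from 0.877 to 1.97 for Dgat2.

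The levels of the 10 genes spanned a wide range, and their order depended on the gene length used. By the deposited RPKM, Plin3 was highest on the control diet at 84.5 ± 2.76 (SD, n = 5), followed by Pnpla2 at 39.99 ± 1.37, Plin2 at 36.6 ± 0.982, Lipe at 30.4 ± 1.93 and Hilpda at 27.6 ± 1.54. Abhd5 (11.7 ± 0.959) and Dgat1 (9.15 ± 1.138) came next, and Dgat2 (1.55 ± 0.488), Plin5 (1.30 ± 0.234) and Plin4 (1.23 ± 0.271) were lowest. The ranges of the 5 control mice overlapped between Pnpla2 and Plin2, Lipe and Hilpda, Abhd5 and Dgat1, and along the last 3 genes. The deposited lengths differed from the exons of GENCODE M21 merged into a union: 7982 bases against 3020 for Pnpla2, 5378 against 3512 for Plin2, and 2159 against 3786 for Plin3. With union lengths, Pnpla2 was highest at 106 ± 3.63 RPKM, and Plin2 (56.0 ± 1.504), Lipe (53.9 ± 3.41), Plin3 (48.2 ± 1.57) and Hilpda (41.0 ± 2.29) followed, with overlapping ranges between Plin2 and Lipe and between Lipe and Plin3. Plin4, Plin5 and Dgat2 stayed lowest on both scales. On the ketogenic diet, Plin2 was above Pnpla2 without overlap by the deposited RPKM (46.4 ± 1.54 against 38.3 ± 1.59) and below it by union lengths (71.0 ± 2.35 against 101 ± 4.19).

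**Figure D3:**
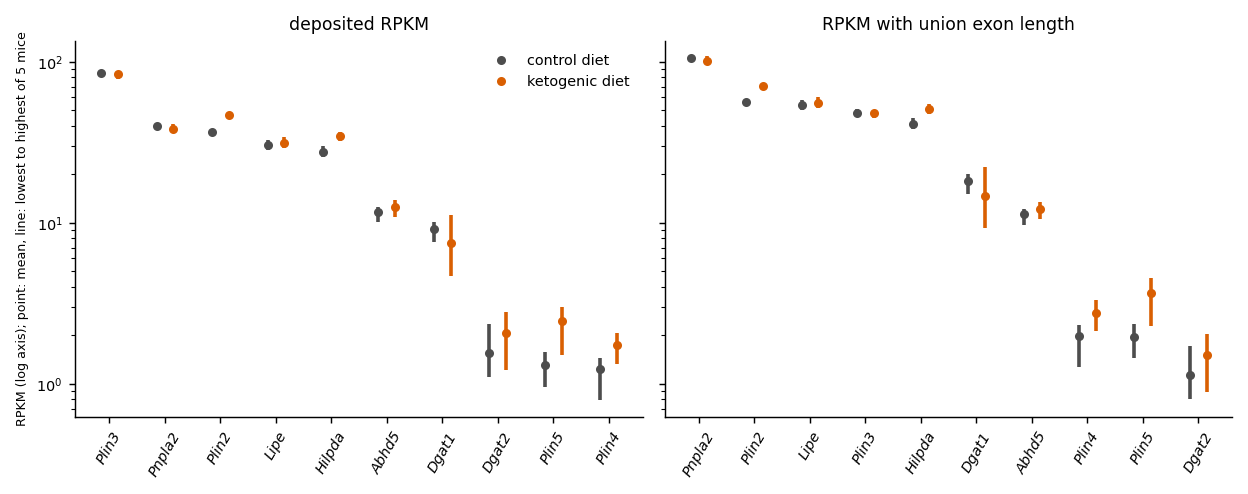
Levels of the 10 genes in RPKM (log axis) by the deposited values (left) and with union exon lengths (right), ordered by the control diet mean, with grey for the control diet, orange for the ketogenic diet, a point for the mean and a line from the lowest to the highest of 5 mice. Plin3 leads on the left and Pnpla2 on the right, and Plin4, Plin5 and Dgat2 lie far below the rest on both.

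For Pnpla2 and, on its principal transcript, Plin2, counts came near the number of places where a read could start. A gene read by single reads of 50 bases on either strand has as many possible start positions as its length allows on both strands. Of the 3770 genes averaging 1000 reads or more, 5 exceeded the number of positions in their union of exons, and the largest mean was 110.3% of it. The variance between control mice fell from a median of 10.1 times the mean in genes that used up to 20% of their positions to 0.380 times the mean in those above 80%. Among the cell type markers, the highest shares of union positions were 89.7% for Cdh5, 88.4% for Tek, 84.4% for the mural gene Rgs5 and 78.0% for Tie1. The part of this limit in the summed marker levels was not tested. Plin2 used 32.5% of its union positions on the control diet and 42.7% on the ketogenic diet, and 61.2% and 80.5% of those in its principal transcript of 1888 bases. Pnpla2 used 61.4% and 61.0% of its union positions, and its mean count exceeded the positions of its principal transcript of 1799 bases (104% and 103%). Counts corrected on the assumption that each position yields at most 1 counted read gave Plin2 a log2 fold change of 0.43 with union lengths and 0.72 with the principal transcript, against 0.33 uncorrected. The same corrections gave Hilpda 0.37 and 0.39, Lipe 0.04 and 0.07, and Plin5 0.90 and 0.91. With union lengths Plin2, Plin5 and Hilpda, 3 of the 10 genes, were called, beside 1.54% of all genes. For Pnpla2 the union correction gave −0.09, and none was possible with the principal transcript. The part of such a limit in the measured differences was not tested. Whether duplicate reads were removed before counting is not given in the sources used here.

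**Figure D4:**
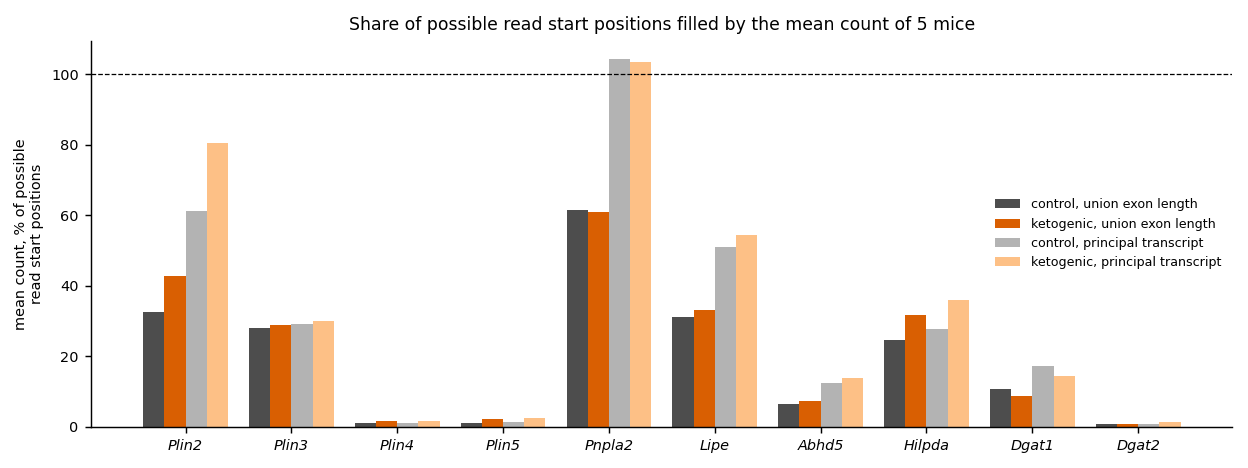
Mean count of 5 mice as a percentage of possible read start positions (y axis, from 0, dashed line at 100%) for the 10 genes, with dark bars for union exon lengths and pale bars for the principal transcript, grey for the control diet and orange for the ketogenic diet. Pnpla2 exceeds 100% of its principal transcript on both diets, Plin2 rises from 61.2% to 80.5%, and Plin4, Plin5 and Dgat2 stay under 3%.

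The start regions of the 4 perilipin and inhibitor genes with estimates above 0.3 were examined for letters that PPAR and hypoxia factors are known to bind. RefSeq promoter windows of 300 bases on GRCm38.p6, from 250 before to 50 after the start site, matched 8 of the 10 genes, not Dgat1 or Dgat2. The windows below are printed 5′ to 3′ on the gene's strand so that the letters counted below can be seen in place, and capitals mark AGGTCA, a core of nuclear receptor sites, and ACGTG or GCGTG, cores of hypoxia response elements, on either strand.
Plin2, chr4:86670010-86670309, minus strand: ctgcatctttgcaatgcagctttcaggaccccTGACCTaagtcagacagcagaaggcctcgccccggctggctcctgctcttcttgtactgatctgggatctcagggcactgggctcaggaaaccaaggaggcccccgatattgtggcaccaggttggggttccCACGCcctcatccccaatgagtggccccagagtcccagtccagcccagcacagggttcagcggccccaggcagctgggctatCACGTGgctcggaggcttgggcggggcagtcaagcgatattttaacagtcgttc
Hilpda, chr6:29272238-29272537, plus strand: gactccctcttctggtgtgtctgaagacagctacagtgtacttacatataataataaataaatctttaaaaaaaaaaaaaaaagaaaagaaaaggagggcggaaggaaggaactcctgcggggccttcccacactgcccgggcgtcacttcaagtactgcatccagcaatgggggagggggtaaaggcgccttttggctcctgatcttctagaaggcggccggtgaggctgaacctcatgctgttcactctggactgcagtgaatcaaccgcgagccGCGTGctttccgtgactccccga
Plin5, chr17:56117499-56117798, minus strand: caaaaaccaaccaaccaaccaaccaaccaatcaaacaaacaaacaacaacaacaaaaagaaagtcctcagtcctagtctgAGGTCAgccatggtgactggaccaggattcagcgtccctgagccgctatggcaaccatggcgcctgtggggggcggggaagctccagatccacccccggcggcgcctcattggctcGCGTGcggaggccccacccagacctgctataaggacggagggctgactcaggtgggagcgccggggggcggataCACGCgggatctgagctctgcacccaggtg
Plin4, chr17:56109733-56110032, minus strand: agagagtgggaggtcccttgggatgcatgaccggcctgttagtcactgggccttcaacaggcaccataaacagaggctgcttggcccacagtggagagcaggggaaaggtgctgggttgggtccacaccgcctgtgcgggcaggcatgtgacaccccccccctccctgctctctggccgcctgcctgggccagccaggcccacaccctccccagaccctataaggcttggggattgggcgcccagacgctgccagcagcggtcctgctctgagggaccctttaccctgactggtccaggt
The Plin2 window held AGGTCA once, 218 bases before the start site, and GCGTG once. It also held ACGTG on both strands in the overlapping palindrome CACGTG, which begins 4 bases before the start site and runs across it. The Plin5 window shown held AGGTCA once, 170 bases before the start, and GCGTG at 2 places. A second RefSeq window of Plin5, from 56117249 to 56117548, held another AGGTCA, 14 bases after its own start, and the GCGTG nearer the end of the first window again. The Hilpda window shown held GCGTG once, and a second RefSeq window of this gene, from 29272376 to 29272675, held ACGTG once and GCGTG at 2 places, one of them that of the first window. The Plin4 window held none of these letters. The same letters were in windows not printed here, of genes with lower estimates. A Lipe window (estimate 0.03), from 25395938 to 25396237, held the palindrome CACGTG with ACGTG on both strands, and GCGTG once. The Abhd5 window (estimate 0.09) held AGGTCA once and GCGTG once. The other Lipe window and those of Plin3 and Pnpla2 held none. Among all 32851 windows, 16.3% held AGGTCA, 19.6% ACGTG and 32.4% GCGTG, so that single matches are frequent. A full PPAR element, the DR1 repeat of the AGGTCA core after 1 base, searched with any base at the fourth place of each core, was in 0.381% of all windows and in none of the windows of the 8 genes. Such letters are a description of the sequence and not evidence of binding.

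Other genes of the same pathways give the setting of these values. A wider list of 47 genes followed textbook roles but was drawn up with earlier results of these data known. Its calls and p-values are therefore a description. Of its 40 tested genes, 1 rose and 1 fell, beside 1.34% of all genes called in either direction. Their median log2 fold change was 0.01, with 21 estimates above and 19 below 0. Angptl4, which encodes an inhibitor of lipoprotein lipase and is a PPAR target, rose, with a log2 fold change of 1.07 ± 0.160 (estimate and standard error) and edgeR's adjusted p = 0.00885. Its normalized counts were 993, 1881, 1976, 1651 and 2273 on the control diet and 3710.0, 3870.4, 3624, 3647 and 3571 on the ketogenic diet, with no overlap and a narrow spread in the second group. The mean count of Angptl4 filled 24.7% of its union start positions on the control diet and 53.9% on the ketogenic diet. The variance of its counts was 153 and 2.21 times the mean. Correction for start positions with the principal transcript gave a log2 fold change of 1.41. The part of this limit in the narrow spread was not tested. Lpin3, a phosphatidate phosphatase that makes diacylglycerol, fell, with a log2 fold change of −0.95 ± 0.189 (estimate and standard error) and edgeR's adjusted p = 0.0375. It had 635 to 951 normalized counts on the control diet and 260.2 to 573 on the ketogenic diet, without overlap. Its call was lost in 7 of the 10 fits that left out a mouse (all but those without control mouse 4 or without ketogenic diet mouse 2 or 5), where the adjusted p from edgeR lay between 0.0543 and 0.0842. When the cardiomyocyte score entered the model, edgeR's adjusted p was 0.111 for Angptl4 (log2 fold change 0.97) and 0.222 for Lpin3 (−0.80).

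Among the 11 tested genes of other droplet proteins, 0 were called by edgeR or DESeq2, 2 had an unadjusted p under 0.05 in edgeR, and 7 estimates were above 0. Cidea, which promotes droplet fusion and is known from brown fat, had 6 to 38 reads per mouse and an estimate of 1.079 ± 0.374 (edgeR's adjusted p = 0.164). That of Hsd17b11 was 0.23 ± 0.0807 (edgeR's adjusted p = 0.175). Rab18, the gene of a droplet GTPase and the highest of this group by the deposited RPKM, though below Aup1 with union lengths, had 0.01 (standard error 0.0362), below 0 with upper quartile factors. Plin1, Cidec, Cideb and Hsd17b13 had too few reads to be tested. Of the 11 other lipases and regulators, 0 were called by edgeR or DESeq2, and 1, Pnpla6, had an unadjusted p under 0.05 in edgeR. Pnpla6 had −0.15 ± 0.0645 (edgeR's adjusted p = 0.260) and Pnpla3, a relative of the ATGL gene, −0.75 ± 0.364 (edgeR's adjusted p = 0.307). The highest of them by the deposited RPKM, though below Mgll with union lengths, the lysosomal lipase gene Lipa, was at 0.02 ± 0.0334. G0s2, the second inhibitor gene of ATGL, had a fold change of 0.947 (95% interval 0.839 to 1.07), while its functional relative Hilpda had 1.24 (95% interval 1.13 to 1.35). G0s2 and the next gene were chosen after their values were seen. Vldlr, a receptor for triglyceride-rich lipoproteins, had 8.05 to 47.6 normalized counts on the control diet and 55.3 to 108 on the ketogenic diet (estimate 1.36 ± 0.347, edgeR's adjusted p = 0.0743). In the synthesis group of 11 tested genes, Agpat3 had 0.31 (adjusted p = 0.0609 from edgeR) and Gpat4, an abundant first-step acyltransferase, −0.03 (standard error 0.0343). Of the supply genes, Tmem41b had 0.36 (adjusted p = 0.0698 from edgeR) and Gpihbp1, which anchors lipoprotein lipase on capillaries, −0.02 (standard error 0.0336), above 0 after correction for start positions. In the wider list, 4 genes were higher without overlap (Angptl4, Vldlr, Agpat3 and Tmem41b) and 1 lower (Lpin3), beside 2.40% and 1.94% of all tested genes. With DESeq2, 5 genes of the list passed an adjusted p of 0.05, beside 5.54% of all genes, and of the 10 genes first described it called Plin2, Plin5 and Hilpda.

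**Figure D5:**
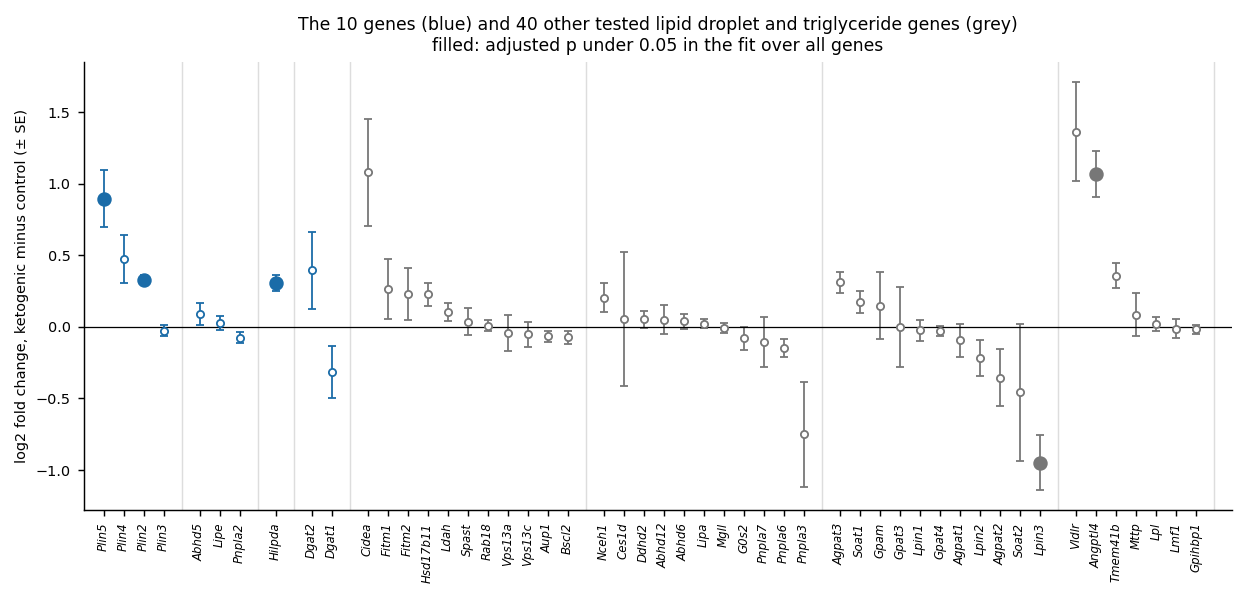
Log2 fold changes between the diets (y axis, ketogenic minus control, with standard errors) for the 10 genes in blue and 40 other tested lipid droplet and triglyceride genes in grey, in functional groups divided by lines. Filled points had an adjusted p under 0.05 in the fit over all genes: Plin5, Plin2, Hilpda, Angptl4 and Lpin3.

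Mouse-to-mouse patterns within a diet were compared for Plin2 and Plin5 after subtracting each diet's mean, over 10 mice and 12377 other genes. The highest Pearson's r with Plin2 was 0.90 for Brwd3, 0.88 for Capn10 and 0.86 for Gm42892. With Plin5 it was 0.92 for Hnrnpr, 0.91 for Tnfaip8l3 and 0.90 for Wdr90. These are the highest of many values over few mice and are given as a description.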

How the data were processed

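Per the labels, libraries were made from 10 ng of RNA with the SMART-Seq v4 kit, which does not record the strand, and sequenced as single reads of 50 bases. The authors deposited raw counts of reads per gene and RPKM values, which are these counts divided by 1 length per gene and by the reads counted in the mouse. The submitters' processing notes list bcl2fastq 2.17.1.14, STAR 2.3, HTSeq 0.6.0 and the build mm10. Symbols came from GENCODE M21 on GRCm38, in which 46488 of 46983 identifiers were found, 37902 with the same version.

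The 10 genes, the wider list of 47 genes and the marker lists were chosen with earlier results of these data known. Genes were kept by filterByExpr and tested with edgeR 4.0.16 in R 4.3.3 (TMM, quasi-likelihood F-test, Benjamini-Hochberg adjustment over 15949 genes). The study's methods name DESeq2, which was run as an alternative (DESeq2 1.42.0), as was limma 3.58.1 on log2(RPKM + 1) and log2(RPKM + 0.1). The standard error of a log2 fold change was taken from F, as the estimate over its square root. Intervals cover the spread between mice. Log2 CPM used a prior count of 2. A mouse's cardiomyocyte or adipocyte score was the mean z-score of log2 CPM over the markers. The genes named are the 10, every gene of the wider list with an adjusted p under 0.05, the 2 with the smallest p and the highest by the deposited RPKM in each of its 4 groups, and the 3 most like Plin2 and Plin5. The alternatives were other normalization factors, other filters on low counts, the replicate number as a block, both scores as covariates and each mouse left out. Correction for start positions was chosen after seeing the data. For corrected counts, use of positions was capped at 98%. The fit was tested on simulated data, in which the genes given a change did not include those with low counts. Of 100 genes given a log2 fold change of 0.5 in size, 55 were called in the right direction. Of 100 given a change of 1, 91 were. There were 2 false calls among 15715 genes tested.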

Additional observations from a re-analysis of the deposited data

Results flagged for a closer look

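The 5 mice of each diet were searched for a single mouse standing apart, for the 10 genes and the 12 genes of the wider list named by rule. Of these 44 groups of values, 1 had an end mouse separated from its neighbour by more than 0.71 of the whole range, and chance alone flags about 1 in 20. Control mouse 1 had the lowest normalized count of Abhd5 in its group, 681, against 801 in the nearest mouse, a gap of 0.722 of the range.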

How the results depend on the processing

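The 10 genes kept the sign of their log2 fold change under every alternative run, except Lipe, whose estimate of 0.03 was −0.01 with the cardiomyocyte score as a covariate and −0.0014 without ketogenic diet mouse 2. Estimates moved by more than the SD within diets for Plin2 after correction for start positions (0.43 with union lengths, 0.72 with the principal transcript), for Hilpda with the principal transcript (0.39) and for Plin5 with limma on log2(RPKM + 1) (0.57), a scale that understates low genes.

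Of the 10 genes, 1 was called under the replicate block, 1 with the cardiomyocyte score and 1 with the adipocyte score (Plin2 in each), against 3 in the analysis described above, and between 1 and 2 with a mouse left out. Only 1 of the 8 adipocyte markers had enough reads to be tested, so the adipocyte score rests mainly on genes with few reads. Over all genes, 213 were called, against 815 with DESeq2, 113 under the replicate block, 25 with the cardiomyocyte score, 114 with the adipocyte score and 86 (without control mouse 2) to 492 (without ketogenic diet mouse 2) with a mouse left out. In the wider list, 2 were called, against 5 with DESeq2, 1 under the replicate block, 0 with the cardiomyocyte score, 1 with the adipocyte score and between 1 and 4 with a mouse left out. The cause of these shifts was not tested. Beside the 0 calls of edgeR in the wider list with the cardiomyocyte score, 6 genes had an unadjusted p under 0.05.

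Same-numbered mice did not deviate together (correlations over genes from −0.13 to 0.09, and 0 of 5 numbers correlated best with themselves). So few correlations cannot exclude a pairing by number, and the main fit used the numbers only as names. The estimates near 0 changed sign for Rab18 with upper quartile factors (−0.0062) and the cardiomyocyte score (−0.0251) and in some fits without a mouse (−0.0048 to 0.0287), for Gpat4 with the cardiomyocyte score (0.0038), and for Gpihbp1 without ketogenic diet mouse 3 (0.0057, with a range of −0.0325 to 0.0057 over the fits without a mouse) and after correction for start positions (0.0485). At the low counts of Plin5 and Dgat2, small differences were not detectable.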
